A study of Mus musculus with 24 samples.

Results

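B10.BR mice that had received 300 cGy (centigray) of total body irradiation 24 hours earlier were compared with unirradiated B10.BR mice (0 cGy), at the level of gene expression in the spleen. The 6 arrays were taken by their labels from the 24 one-colour Agilent arrays of the study, 3 per dose. The mice were irradiated with an X-ray cabinet and the unirradiated mice were at rest. B10.BR is an inbred strain with the k haplotype of the major histocompatibility complex, which it shares with BALB.K, the other strain of the study, and no further genotype or agent is named in the labels. Each array held RNA pooled from 3 mice and extracted from homogenised whole splenocytes, so that the spread between arrays is that between pools and p-values measure only that spread. Whether the mice were male or female is not stated in the labels. The Y-linked helicase gene Ddx3y was well above background on all 6 arrays, at 1.82, 1.57 and 1.64 at 300 cGy, against 2.04, 1.94 and 2.14 at 0 cGy, and did not pass the test below (adjusted p = 0.941), whose error for this gene is shared with BALB.K pools that differ in it. With only the 6 arrays compared it passed (-0.37, adjusted p = 0.0457).

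The spleen filters blood. Macrophages of its red pulp engulf worn red cells and recycle their iron, its white pulp holds B and T lymphocytes, and in mice the red pulp also makes red cells. Ionising radiation breaks DNA, and the transcription factor p53 then induces genes that halt the cell cycle or start cell death. Lymphocytes and the dividing precursors of blood cells are known to be among the cells most sensitive to radiation.

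Of the 55681 probes 67.0% to 73.5% gave a signal well above background on the 6 arrays, whose 75th percentiles ran from 830.3 to 1186 intensity units. Precision is limited by the number of arrays. Every level below is log2 signal relative to the 75th percentile of its own array, and levels of different genes are not compared, since each gene has its own probe. All 6 arrays lay on slide 1 of 3. The spleen label was checked with defining markers: the B cell gene Ms4a1, the T cell gene Cd3e and the macrophage gene Cd68 were well above background on all 6 arrays.

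The arrays at 300 cGy differed among themselves in the genes of another organ. A list of 29 exocrine pancreas genes, most of them for digestive enzymes of acinar cells, held 0.894%, 0.714% and 0.0678% of the summed signal at 300 cGy, against 0.00186%, 0.00249% and 0.00481% at 0 cGy. Replicates 1 and 2 at 300 cGy thus stood above replicate 3 in these genes. Fat cell genes followed a similar order, with 0.0573%, 0.0276% and 0.0220% at 300 cGy, against 0.0107%, 0.0128% and 0.0101% at 0 cGy. Without replicates 1 and 2 at 300 cGy, 1 array at that dose is set against 3 and assumed to vary like the other groups. Results under this alternative are given below where a named gene lost its call or a list's count of 2 or more genes moved by more than 1.5 times, and counts that moved so with spike-in scaling or with the exocrine level as a covariate are given too.

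In all, 12329 of 29526 genes passed an adjusted p of 0.05 (41.8%), 5529 of them higher (18.7%) and 6800 lower (23.0%) at 300 cGy. At least 2-fold higher were 1681 genes (5.69%), and 1238 were at least 2-fold lower (4.19%). The 2 groups did not overlap for 15272 genes (51.7%), the 3 arrays at 300 cGy lying above all 3 at 0 cGy for 6735 (22.8%) and below them for 8537 (28.9%). The median change over all genes was -0.070 log2, and a list's median is 0.070 higher when taken relative to it. Of the genes that passed, 44.9% were higher; this share was 49.9% with quantile normalization, 40.1% with median scaling and 85.5% with scaling on 9 spike-in probes, which raised every change by 0.35 log2. Changes are therefore given relative to the array as a whole, as log2 differences of 300 cGy minus 0 cGy ± the standard error of the limma fit (3 arrays against 3), and "rose" and "fell" are used of genes that passed. In whole spleen RNA, fewer cells of a type and less RNA per cell cannot be told apart.

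The largest falls were led by genes of red cell formation, and among the largest rises outside the digestive enzymes were genes of phagocytes, the interferon response and matrix remodelling. The plot of list medians shows this spread. As many as 21 of 23 red cell membrane genes fell, while 27 of 27 macrophage genes and 34 of 37 type I interferon response genes rose.

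**Figure D1:**
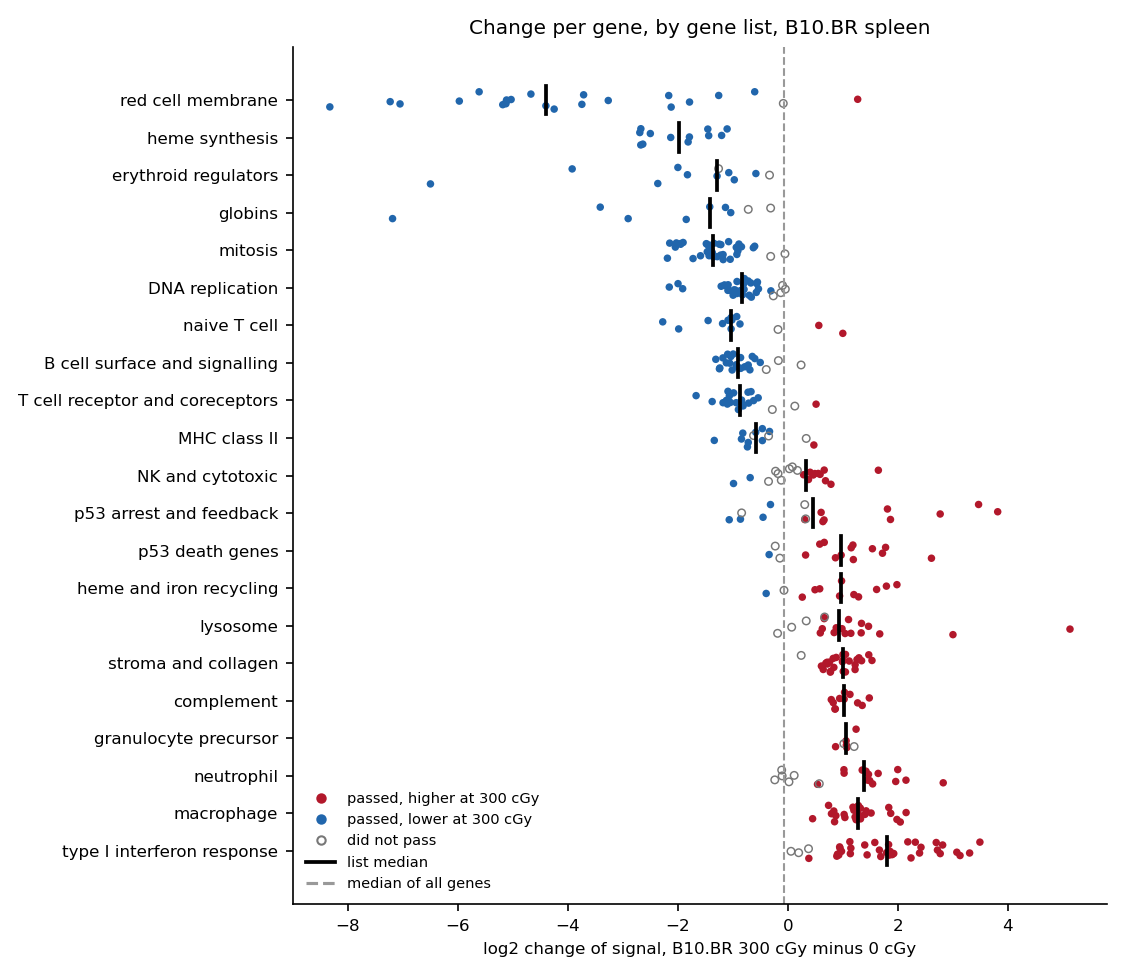
Log2 change of each gene in B10.BR spleen, 300 cGy minus 0 cGy (x axis), with 1 row per gene list. Each point is a gene, filled red where it passed and was higher at 300 cGy, filled blue where it passed and was lower, and open where it did not pass; the bars are list medians and the dashed line the median of all genes (-0.070). Red cell membrane genes lie furthest to the left and the interferon list (median 1.8) furthest to the right among the medians shown.

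Among targets of p53 the death genes mostly rose, while the other lists were mixed. Cdkn1a, which encodes the p21 inhibitor of cyclin-dependent kinases, was at 1.9, 1.86 and 1.85 at 300 cGy, against -2.02, -1.97 and -1.86 at 0 cGy. The groups lay far apart, and Cdkn1a was 14.1-fold higher (log2 change 3.82 ± 0.099, adjusted p = 2.07e-14). Of the 16 p53 targets of arrest and feedback, 9 rose and 4 fell (median 0.47). Without replicates 1 and 2 at 300 cGy 8 rose and 2 fell, and with spike-in scaling 2 fell. Among those that rose were Ccng1, a cyclin that p53 induces (1.87 ± 0.13), Zmat3, an RNA-binding zinc finger protein (1.81 ± 0.11), Psrc1, a spindle protein (2.77 ± 0.15), and Plk2, a kinase of the polo family (0.66 ± 0.14). Plk2 lost its call with the exocrine covariate (adjusted p = 0.0681). Gdf15, a secreted stress cytokine, rose (3.47 ± 0.21). Gadd45a, a growth arrest gene, and Sesn1, a sestrin, belong to the same pathway and fell (-1.06 ± 0.16 and -0.86 ± 0.11). Gadd45a was at 2.02, 1.82 and 1.51 at 300 cGy, against 2.87, 2.76 and 2.92 at 0 cGy, so that no array at 300 cGy reached any at 0 cGy.

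Mdm2, the ubiquitin ligase that degrades p53, was at 4.31, 4.46 and 4.39 at 300 cGy, against 3.99, 4.01 and 4.24 at 0 cGy. Its 3 arrays at 300 cGy all lay above those at 0 cGy, but the difference did not pass in the fit over all 24 arrays (0.31 ± 0.75, adjusted p = 0.79), whose error for this probe is shared with the BALB.K groups. With only the 12 B10.BR arrays it passed at the same size (adjusted p = 0.0261). Trp53, the gene of p53 itself, was at -2.33, -2.54 and -2.22 at 300 cGy, against -1.96, -2.06 and -2.12 at 0 cGy. It fell (-0.31 ± 0.11, adjusted p = 0.0331), but did not pass with only the 12 B10.BR arrays, with only the 6 arrays compared or with the exocrine covariate. Nor did it pass with the authors' deposited matrix, with robust moderation that follows intensity, or without replicate 1 or replicate 2 of either dose. Without both replicates 1 and 2 at 300 cGy it did not pass either, with a change of -0.17. With spike-in scaling its change was 0.031, of the opposite sign.

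The death genes that p53 induces moved mostly upward, as 12 of 15 rose and 1 fell (median 0.97). Bax, which opens the mitochondrial outer membrane, was at 5.23, 5.29 and 5.16 at 300 cGy, against 4.06, 3.95 and 4.12 at 0 cGy. The difference of 1.19 ± 0.084 exceeded the spread of either group (adjusted p = 4.88e-09). Phlda3, an inhibitor of Akt signalling, rose (2.61 ± 0.095), as did Bbc3, which encodes the killer protein PUMA (1.78 ± 0.10), and Perp, a membrane protein (1.72 ± 0.29). The death receptors Tnfrsf10b, which binds TRAIL, and Fas rose (1.19 ± 0.10 and 0.66 ± 0.090). In the Bcl2 family 9 of 16 genes rose and 3 fell. The survival genes Mcl1 (-0.73 ± 0.13) and Bcl2l1 (-0.55 ± 0.17) fell, and both lost the call with spike-in scaling. Bcl2l1 also lost it with only the 6 arrays compared (adjusted p = 0.0884), with the mean of its probes (-0.25) and without replicate 1 at 0 cGy or replicate 3 at 300 cGy. Without replicates 1 and 2 at 300 cGy 3 genes of the family rose and 2 fell, and with spike-in scaling none fell.

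Of 19 metabolic and repair targets of p53, 7 rose and 3 fell (median 0.13), 1 with spike-in scaling. Mgmt, which removes alkyl groups from guanine, rose (1.76 ± 0.13), as did Dcxr, a reductase of xylulose and dicarbonyls (1.7 ± 0.13), and Ddit4l, an inhibitor of mTOR signalling (1.67 ± 0.16). Ddb2, which recognises ultraviolet lesions in DNA, was at 0.57, 0.85 and 0.81 at 300 cGy, against 1.85, 1.88 and 2.18 at 0 cGy. It fell (-1.23 ± 0.11), with all arrays at 300 cGy below those at 0 cGy. Sensors of DNA breaks and end joining genes were not raised: 0 of 19 rose and 10 fell (median -0.34), but with spike-in scaling 1 fell and the median was 0.0050, of the opposite sign. Without replicates 1 and 2 at 300 cGy 3 fell, and 5 with the exocrine level as a covariate.

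Genes of cell division fell together. Of 37 mitosis genes 35 fell and none rose (median -1.35), and of 36 DNA replication genes 32 fell (median -0.84). With spike-in scaling, 26 mitosis and 14 replication genes still fell. The proliferation marker Mki67 was at 3.33, 3.39 and 3.19 at 300 cGy, against 5.59, 5.36 and 5.41 at 0 cGy. The arrays at 300 cGy lay close together and all below those at 0 cGy, a change of -2.15 ± 0.16 (adjusted p = 9.29e-09). Ccna2, the cyclin of S and G2 phase, fell (-2.19 ± 0.19), as did Cdk1, the kinase that starts mitosis (-1.34 ± 0.21), Birc5, which encodes survivin of the chromosomal passenger complex (-2.04 ± 0.15), Ube2c, the ubiquitin-conjugating enzyme of the anaphase-promoting complex (-1.72 ± 0.17), and Prc1, which bundles spindle midzone microtubules (-1.59 ± 0.16).

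Prc1 and the 2 other mitosis genes below have promoters that hold both a CCAAT box (CCAAT, read as ATTGG on the other strand), which the activator NF-Y binds, and the core of the cell cycle homology region (TTTGAA or TTCAAA), through which cell cycle genes are repressed in resting cells. These stretches are shown because the genes fell together and share the 2 elements. Each is the 150 bases before the gene's start in RefSeq, build GRCm38.p6, read 5′ to 3′ along the gene, with both elements in capitals. Mki67 lies at chr7:135716380-135716529 on the minus strand, Ube2c at chr2:164769779-164769928 on the plus strand and Prc1 at chr7:80294326-80294475 on the plus strand.
Mki67: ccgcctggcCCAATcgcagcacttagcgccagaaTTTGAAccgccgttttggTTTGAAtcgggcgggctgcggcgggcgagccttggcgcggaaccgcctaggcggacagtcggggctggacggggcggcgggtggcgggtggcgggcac
Ube2c: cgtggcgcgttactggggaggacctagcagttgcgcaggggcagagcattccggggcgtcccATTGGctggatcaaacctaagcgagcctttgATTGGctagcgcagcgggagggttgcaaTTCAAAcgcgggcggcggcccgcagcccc
Prc1: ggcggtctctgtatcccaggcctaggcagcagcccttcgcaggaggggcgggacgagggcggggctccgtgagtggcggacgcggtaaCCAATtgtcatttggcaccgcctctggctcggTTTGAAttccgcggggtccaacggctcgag
Within 250 bases before to 50 after the start, and on either strand, 22 of the 33 mitosis genes with a promoter in the table held both elements (66.7%), against 2425 of 27025 genes in all (8.97%). The homology region core alone was held by 24 of the 33 (72.7%, against 20.2% of all genes) and the CCAAT box by 26 (78.8%, against 41.1%). Among DNA replication genes, which fell too, 3 of 28 held both (10.7%) and 18 held a CCAAT box (64.3%). A match describes the letters of the window and is no measured binding site.

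The replication genes with the largest falls load and license origins. Orc1, a subunit of the origin recognition complex, was at -3.53, -3.55 and -3.47 at 300 cGy, against -1.07, -1.45 and -1.56 at 0 cGy. It fell (-2.15 ± 0.20), and the loading factor Cdc6 fell (-1.99 ± 0.22). Rrm2, a subunit of ribonucleotide reductase, fell (-1.91 ± 0.16), as did Mcm7, a subunit of the replicative helicase (-1.16 ± 0.12). Of 24 homologous recombination and Fanconi genes 20 fell and none rose (median -0.69), and with spike-in scaling 7 fell. The helicase gene Blm fell (-1.44 ± 0.17). Brca1, a recombination gene, fell (-0.80 ± 0.22), but it did not pass with spike-in scaling, with the exocrine level as a covariate, without replicate 1 at 300 cGy or without replicates 1 and 2 at 300 cGy. Of 45 clustered histone genes, which are transcribed in S phase, 27 fell and 3 rose (median -0.89), with H2ac4 at -2.3 ± 0.20. With spike-in scaling 8 histone genes rose, and 1 did without replicates 1 and 2 at 300 cGy or with the exocrine covariate. Histone genes are near-identical copies, so that a probe may read more than 1 of them.

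Inhibitors of cyclin-dependent kinases split, 4 of 7 rising and 3 falling, but with spike-in scaling 1 fell. Cdkn2b, which encodes the p15 inhibitor of Cdk4 and Cdk6, was at 0.25, 0.24 and 0.53 at 300 cGy, against -1.38, -1.42 and -1.7 at 0 cGy. It rose (1.84 ± 0.11), beside the rise of Cdkn1a. Of 20 genes of cyclins D and E, their kinases and the E2F factors, 3 rose and 8 fell, 4 with spike-in scaling.

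**Figure D2:**
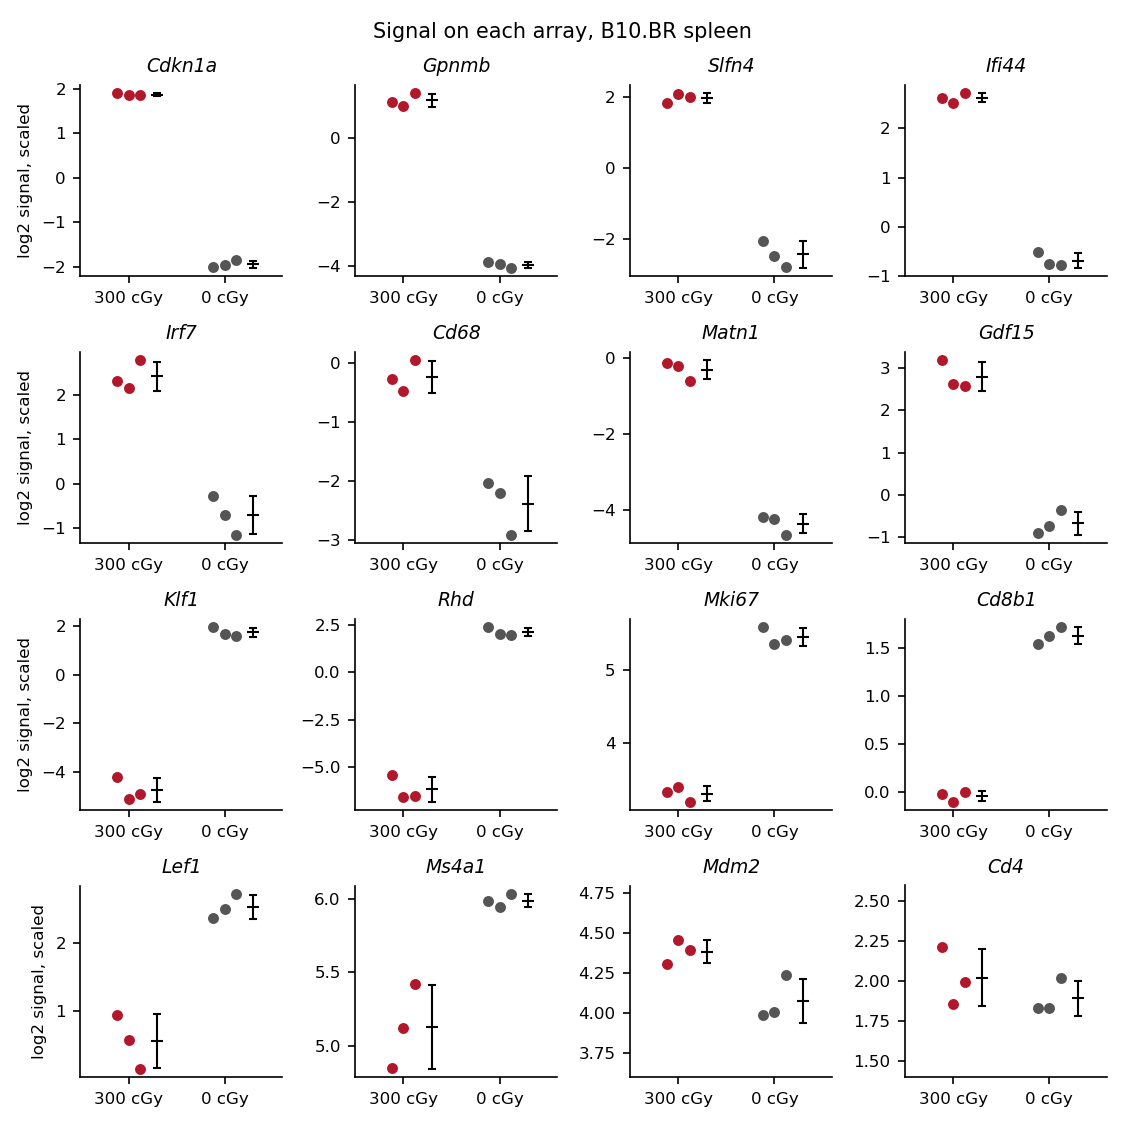
Scaled log2 signal of 16 genes (y axis, 1 panel per gene) on the 3 arrays at 300 cGy (left, red points) and the 3 at 0 cGy (right, grey points), with the mean ± SD beside the points. The groups lie apart for Cdkn1a, Gpnmb, Klf1 and Rhd and overlap for Cd4.

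Red cell genes fell furthest. The membrane list, with the lowest median of the 62 lists, had 21 of 23 genes lower and 1 higher, at -4.4. Btnl10, a butyrophilin-like gene of erythroid cells, was at -5.0, -5.18 and -5.69 at 300 cGy, against 2.18, 1.8 and 1.86 at 0 cGy. Every array at 300 cGy lay more than 6 log2 units below every array at 0 cGy, and the change was -7.23 ± 0.35 (adjusted p = 3.53e-11). Rhd, the Rh blood group protein, was at -5.45, -6.59 and -6.54 at 300 cGy, against 2.39, 2.04 and 1.97 at 0 cGy. It was well above background on 1 of the 3 arrays at 300 cGy and on all 3 at 0 cGy, and it fell (-8.33 ± 0.31).

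Structural genes of the red cell surface fell with them. Add2, the beta adducin of the membrane skeleton, fell (-7.05 ± 0.41), as did Kel, a blood group peptidase (-5.97 ± 0.43), Rhag, the Rh-associated glycoprotein (-5.61 ± 0.36), and Slc4a1, the band 3 anion exchanger (-4.67 ± 0.30). Ermap, an erythroid adhesion protein, fell (-5.12 ± 0.23), as did Cldn13, a claudin of erythroblasts (-5.18 ± 0.28). The exception was Sptb, the beta spectrin gene, which rose (1.27 ± 0.24) and was at -2.82, -3.0 and -3.36 at 300 cGy, against -4.36, -4.38 and -4.25 at 0 cGy. Further genes among the 12 with the largest falls were Apol8, an apolipoprotein L gene (-6.45 ± 0.33), Slc25a21, the mitochondrial oxodicarboxylate carrier, and Tlcd4, a TLC domain gene (-5.53 ± 0.33). Rhag and Tlcd4 were each well above background on 2 of 3 arrays at 300 cGy, so that their sizes rest in part on signals not well above background. Slc25a21 was not well above background on any array at 300 cGy and was at least 39.4-fold lower there (adjusted p = 5.94e-11, measured means -8.04 at 300 cGy and -1.07 at 0 cGy).

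The start regions of Rhd and Btnl10 are shown because these are the 2 membrane genes with the largest falls and hold a GATA motif there. A start region without the motif would not have been shown. Each stretch is the 150 bases before the start in RefSeq, build GRCm38.p6, 5′ to 3′ along the gene, with a GATA motif (AGATAA, or TTATCT on the other strand) in capitals. GATA motifs are bound by Gata1, the factor that directs red cell formation. Rhd lies at chr4:134864386-134864535 on the plus strand and Btnl10 at chr11:58917758-58917907 on the plus strand.
Rhd: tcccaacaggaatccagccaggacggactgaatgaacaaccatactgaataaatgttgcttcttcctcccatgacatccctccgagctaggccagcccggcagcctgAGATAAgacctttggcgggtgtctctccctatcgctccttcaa
Btnl10: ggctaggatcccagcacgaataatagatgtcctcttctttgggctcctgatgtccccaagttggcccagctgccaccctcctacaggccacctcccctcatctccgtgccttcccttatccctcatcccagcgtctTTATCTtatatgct
In the window of 250 bases before to 50 after the start, 5 of 16 red cell membrane genes with a promoter held this motif (31.2%) and 4 of 9 erythroid regulators did (44.4%), against 12.7% of all genes. Of 9 heme synthesis genes 2 held it (22.2%).

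Of 11 erythroid regulators 9 fell and none rose (median -1.29). Klf1, the Krüppel-like factor that drives globin and membrane genes, was at -4.2, -5.12 and -4.92 at 300 cGy, against 1.96, 1.69 and 1.6 at 0 cGy. It fell (-6.5 ± 0.29, adjusted p = 1.87e-11). Gata1 itself fell (-2.0 ± 0.26) and was at 2.11, 1.7 and 1.1 at 300 cGy, against 3.81, 3.56 and 3.54 at 0 cGy. Trim10, a ubiquitin ligase of terminal erythroid cells, fell (-3.92 ± 0.30), as did Gfi1b, a repressor shared with megakaryocytes (-2.36 ± 0.21), and Epor, the erythropoietin receptor (-0.97 ± 0.15).

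All 12 heme synthesis genes on the list fell (median -1.97), also without replicates 1 and 2 at 300 cGy. Alas2, the first enzyme of the pathway in red cell precursors, was at 3.73, 2.75 and 1.82 at 300 cGy, against 5.84, 5.36 and 5.11 at 0 cGy. The arrays at 300 cGy were spread widely, with replicate 3 lowest, and the change was -2.67 ± 0.41. Abcb10, a mitochondrial transporter needed for heme synthesis, was tighter, at 0.38, 0.45 and 0.48 at 300 cGy, against 3.31, 3.04 and 3.03 at 0 cGy, and fell (-2.69 ± 0.11). Of 9 globin and globin chaperone genes 7 fell. Ahsp, the chaperone of free alpha globin, fell (-7.19 ± 0.37), and Hbb-b2, an adult beta globin, fell (-1.85 ± 0.33), as did Hba-a1, an alpha globin (-1.04 ± 0.23). Globin genes have near-identical copies, which these probes may not separate.

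Genes of macrophages rose, with 27 of 27 passing (median 1.27) and 26 of 27 without replicates 1 and 2 at 300 cGy. Together they held 0.440%, 0.426% and 0.477% of the summed signal at 300 cGy, against 0.198%, 0.177% and 0.169% at 0 cGy. Cd68, a lysosomal glycoprotein of macrophages, was at -0.28, -0.48 and 0.046 at 300 cGy, against -2.04, -2.21 and -2.92 at 0 cGy. It rose (2.15 ± 0.20, adjusted p = 1.58e-07), and Fcgr1, the high-affinity receptor for IgG, rose (2.05 ± 0.12). Cd5l, a protein secreted by tissue macrophages, rose (1.87 ± 0.18), as did Siglec1, a sialic acid receptor of marginal zone macrophages (1.84 ± 0.20), C1qb, a chain of complement C1q (1.52 ± 0.18), and Csf1r, the receptor of their growth factor (0.45 ± 0.10). Outside this list, Fcgr3, another IgG receptor, and Ctss, cathepsin S, did not pass in the fit over all 24 arrays (1.09 ± 0.88 and 0.34 ± 0.74) but passed with only the 12 B10.BR arrays.

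Iron recycling genes moved with the macrophage genes and against those of heme synthesis. Of 12 genes 10 rose and 1 fell (median 0.96). Hmox1, the oxygenase that opens heme and frees its iron, was at 7.46, 7.19 and 7.12 at 300 cGy, against 5.53, 5.37 and 5.49 at 0 cGy. It rose (1.79 ± 0.19). Slc40a1, the iron exporter ferroportin, rose (1.29 ± 0.11), as did Slc11a1, a metal transporter of phagosomes (1.62 ± 0.11), Cd163, the receptor for hemoglobin bound to haptoglobin (1.99 ± 0.37), and Spic, the transcription factor of red pulp macrophages (1.2 ± 0.13).

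Of 20 lysosome genes 16 rose and none fell (median 0.93). Gpnmb, a transmembrane glycoprotein of phagocytes with loaded lysosomes, was at 1.12, 0.98 and 1.39 at 300 cGy, against -3.88, -3.96 and -4.06 at 0 cGy. It was 35.1-fold higher (5.13 ± 0.34, adjusted p = 2.27e-09), one of the largest rises outside the digestive enzymes. Atp6v0d2, a subunit of the vacuolar proton pump, rose (3.0 ± 0.23), as did Ctsd, cathepsin D (1.67 ± 0.11).

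B cell genes fell. Of 23 surface and signalling genes 20 fell and none rose (median -0.91), and of 14 regulators 12 fell and 1 rose (median -0.65). These counts depended on scaling, since 9 surface genes and 3 regulators fell with spike-in scaling (medians -0.57 and -0.30). Ms4a1, which encodes CD20, was at 4.85, 5.13 and 5.42 at 300 cGy, against 5.98, 5.94 and 6.03 at 0 cGy. It fell (-0.85 ± 0.15, adjusted p = 0.000145), with no overlap between the groups. Fcrla, an Fc receptor-like protein of B cells, fell (-1.24 ± 0.13).

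Bach2, a repressor that holds B cells back from the plasma cell fate, was at 0.44, 0.65 and 0.74 at 300 cGy, against 2.16, 2.11 and 2.34 at 0 cGy. It fell (-1.59 ± 0.13), and Ebf1 and Pax5, which set B cell identity, fell (-1.46 ± 0.10 and -1.08 ± 0.17). Ms4a1 and Pax5 did not pass with spike-in scaling. The probe for Ighm, the heavy chain of IgM, did not pass (0.24 ± 0.40), with overlapping groups.

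Genes of antibody secretion moved the other way. Of 20 plasma cell and secretion genes 11 rose and 1 fell (median 0.40), 7 rose with the exocrine covariate and 5 without replicates 1 and 2 at 300 cGy. Sdf2l1, a folding factor of the endoplasmic reticulum, rose (1.17 ± 0.14), and the member that fell was Irf4 (-0.57 ± 0.15), a factor of activated lymphocytes and plasma cells, which lost its call with spike-in scaling, with the exocrine covariate and without those replicates.

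T cell genes fell as a group. Of 22 receptor and coreceptor genes 19 fell and 1 rose (median -0.87), 10 with spike-in scaling. Cd3e, a signalling chain of the receptor, was at 1.87, 1.69 and 1.77 at 300 cGy, against 2.63, 2.61 and 2.61 at 0 cGy. It fell (-0.84 ± 0.11) and lost the call with spike-in scaling, while Cd3d, a further chain, fell (-1.1 ± 0.17), as did Lat, the adaptor below the receptor (-1.18 ± 0.16). The coreceptors are given side by side. Cd8b1, of cytotoxic T cells, was at -0.021, -0.10 and 0.0 at 300 cGy, against 1.54, 1.62 and 1.71 at 0 cGy and fell (-1.67 ± 0.13). Cd4, of helper T cells, was at 2.21, 1.86 and 2.0 at 300 cGy, against 1.83, 1.83 and 2.02 at 0 cGy and did not pass (0.13 ± 0.10, adjusted p = 0.339). The difference between the 2 genes was not tested.

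Genes of naive T cells fell in 10 of 13 cases, with 2 higher (median -1.03) and 6 lower with spike-in scaling, and 1 was higher without replicates 1 and 2 at 300 cGy. Dapl1, a gene of resting T cells, was at 0.18, 0.10 and 0.094 at 300 cGy, against 2.41, 2.36 and 2.43 at 0 cGy. It fell (-2.27 ± 0.13), as did Lef1, a transcription factor of the Wnt pathway (-1.98 ± 0.15). Il7r, the receptor of a survival cytokine, fell (-0.93 ± 0.26) but lost its call with spike-in scaling, without replicate 1 at 300 cGy and without replicates 1 and 2 at 300 cGy. Ccr7, which guides cells to T zones, did not pass (-0.18 ± 0.099), and Igfbp4, a binding protein of insulin-like growth factors, rose (1.0 ± 0.22), though it did not pass without replicates 1 and 2 at 300 cGy. Of 18 regulatory T cell genes 6 rose and 1 fell. Their defining factor Foxp3 did not pass (-0.14 ± 0.097, adjusted p = 0.29).

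Natural killer and cytotoxic genes were divided. Of 20 genes 11 rose and 2 fell (median 0.33), with 7 higher without replicates 1 and 2 at 300 cGy and none lower with spike-in scaling. Ncr1, the receptor that marks natural killer cells, was at -0.94, -0.72 and -0.44 at 300 cGy, against -1.18, -1.44 and -1.53 at 0 cGy. It rose (0.69 ± 0.17). Gzmb, granzyme B, rose (1.65 ± 0.17), whereas Gzmm, granzyme M, fell (-0.99 ± 0.11) and lost its call with spike-in scaling.

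Dendritic cell genes had no common direction, with 6 of 19 higher and 7 lower (median -0.18, but 0.013 with quantile normalization and 0.17 with spike-in scaling, where 2 fell). The lectin genes Cd209a and Cd207 fell (-1.39 ± 0.13 and -1.45 ± 0.18), as did Clec9a, a receptor for dead cells on cross-presenting dendritic cells (-0.70 ± 0.085), the last without a call under spike-in scaling. Fscn1, the actin bundler of mature dendritic cells, was at 1.2, 1.1 and 1.0 at 300 cGy, against -0.67, -0.68 and -0.77 at 0 cGy. It rose (1.81 ± 0.17). Of 13 MHC class II genes 9 fell and 1 rose, against 2 lower with spike-in scaling. H2-Ob, a chain that modulates peptide loading in B cells, fell (-1.34 ± 0.17), as did H2-Ab1, a chain of the presenting molecule (-0.72 ± 0.095), without a call under spike-in scaling. Among 16 class I and immunoproteasome genes 9 rose and none fell, 6 rising without replicates 1 and 2 at 300 cGy. Tap1, the peptide transporter, rose (0.99 ± 0.17).

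Interferon response genes rose in 34 of 37 cases (median 1.8, 1.73 with genes below background at their bound), and 34 rose without replicates 1 and 2 at 300 cGy. Their share of the summed signal was 0.425%, 0.423% and 0.455% at 300 cGy, against 0.143%, 0.127% and 0.123% at 0 cGy. Ifi44, an interferon-induced protein, was at 2.62, 2.53 and 2.72 at 300 cGy, against -0.52, -0.75 and -0.78 at 0 cGy. Ifit1, which binds foreign RNA, was at 2.99, 2.95 and 2.96 at 300 cGy, against 0.43, 0.11 and 0.052 at 0 cGy. The 3 arrays at 300 cGy were close together for both, and the changes were 3.31 ± 0.15 for Ifi44 and 2.77 ± 0.17 for Ifit1. Ifit3, of the same family, rose (3.07 ± 0.19), as did Ifit3b (3.37 ± 0.18), Mx1, an antiviral GTPase (2.82 ± 0.23), and Irf7, the factor that amplifies interferon production (3.13 ± 0.24). Oas1g, an oligoadenylate synthetase, was not well above background on any array at 0 cGy and was at least 3.32-fold higher at 300 cGy (adjusted p = 4.56e-07, measured means -4.71 at 300 cGy and -8.21 at 0 cGy). Rsad2, viperin, was among those that did not pass (0.059 ± 0.21).

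The promoters of 3 interferon response genes are shown because these genes rose together and hold the interferon-stimulated response element (TTTC, any 2 bases and TTTC again, or GAAA, any 2 bases and GAAA on the other strand), the site bound by the transcription factors that interferon activates. Each is the 150 bases before the start in RefSeq, build GRCm38.p6, 5′ to 3′ along the gene, with the element in capitals, overlapping copies as 1 run. Oas1g lies at chr5:120887614-120887763 on the minus strand, Ifit3 at chr19:34583379-34583528 on the plus strand and Ifit1 at chr19:34640739-34640888 on the plus strand.
Oas1g: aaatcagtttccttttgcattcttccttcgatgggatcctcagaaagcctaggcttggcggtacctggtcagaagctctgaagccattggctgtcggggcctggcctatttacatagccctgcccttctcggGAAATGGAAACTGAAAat
Ifit3: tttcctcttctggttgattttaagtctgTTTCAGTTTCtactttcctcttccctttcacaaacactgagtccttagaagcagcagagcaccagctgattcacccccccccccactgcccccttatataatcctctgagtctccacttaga
Ifit1: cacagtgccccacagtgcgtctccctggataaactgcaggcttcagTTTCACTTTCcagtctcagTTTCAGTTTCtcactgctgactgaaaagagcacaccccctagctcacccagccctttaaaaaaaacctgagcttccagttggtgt
Of the 26 interferon response genes with a listed promoter, 14 held the element within 250 bases before to 50 after the start (53.8%), against 1079 of 27025 genes in all (3.99%). None of 20 macrophage genes and 3 of 33 mitosis genes (9.09%) held it.

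Related families followed in part. Of 12 p200 and Schlafen genes 7 rose and 1 fell. Slfn4, a Schlafen gene of myeloid cells, was at 1.84, 2.1 and 2.02 at 300 cGy, against -2.04, -2.47 and -2.79 at 0 cGy. It was 21.3-fold higher (4.41 ± 0.21). Of 19 interferon gamma response genes 14 rose and none fell (median 0.94), with Gbp2, a guanylate-binding protein, at 1.36 ± 0.13 and Cxcl10, a chemokine for activated T cells, at 1.72 ± 0.17.

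Inflammatory chemokine genes rose in 14 of 20 cases and none fell (median 0.83). Ccl12, which attracts monocytes, was at -2.69, -1.92 and -1.25 at 300 cGy, against -4.81, -4.76 and -4.77 at 0 cGy. Its arrays at 300 cGy were spread widely but all lay above those at 0 cGy, and the change was 2.83 ± 0.34. Ccl8, a further monocyte attractant, rose (1.94 ± 0.26), as did Ccl3, a macrophage chemokine (1.4 ± 0.14). Ccl7 rose (1.35 ± 0.38) but lost its call without replicates 1 and 2 at 300 cGy (0.89, adjusted p = 0.241), with the exocrine covariate, with only the 6 arrays compared and without replicate 1 at 0 cGy (adjusted p = 0.0575). Of 19 inflammatory cytokine genes 11 rose and 1 fell. Il12b, a subunit of interleukin 12 and interleukin 23, rose (1.99 ± 0.16), as did Il1rn, which encodes the antagonist of the interleukin 1 receptor (1.94 ± 0.18), and Il15, a growth factor of natural killer and memory T cells (1.45 ± 0.15). Tnfsf4, the ligand OX40L, was at -1.47, -1.32 and -1.3 at 300 cGy, against -4.64, -4.66 and -4.85 at 0 cGy. It was 10.2-fold higher (3.36 ± 0.15).

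Niche chemokine and growth factor genes rose in 14 of 21 cases and fell in 1 (median 0.79), with 9 higher without replicates 1 and 2 at 300 cGy. Igf1, a growth factor also made by macrophages, rose (1.74 ± 0.11), as did Hgf, which stroma makes (1.42 ± 0.12), and Cxcl12, which holds blood stem cells in their niche (1.05 ± 0.11). Il7, the survival cytokine of lymphocytes, was at -1.21, -1.09 and -0.81 at 300 cGy, against -2.37, -2.41 and -2.41 at 0 cGy. It rose (1.36 ± 0.11), as did Kitl, the stem cell factor (0.79 ± 0.20), which lost its call with the exocrine covariate and without replicates 1 and 2 at 300 cGy.

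Stromal genes rose too, 25 of 26 in the collagen list (median 1.0) and 17 without replicates 1 and 2 at 300 cGy, and 19 of 24 endothelial genes (median 0.90). Col1a1, a chain of type I collagen, was at 5.02, 4.82 and 4.77 at 300 cGy, against 3.71, 3.56 and 3.32 at 0 cGy. It rose (1.34 ± 0.14), as did the matrix proteoglycan gene Lum (1.53 ± 0.21), and Madcam1, an adhesion molecule of the marginal sinus (1.18 ± 0.13). Lyve1, a hyaluronan receptor of lymphatic vessels, rose (1.5 ± 0.35) but not without replicates 1 and 2 at 300 cGy. Matrix remodelling genes rose in 9 of 13 cases and none fell. Matn1, a matrilin known from cartilage, was at -0.11, -0.21 and -0.59 at 300 cGy, against -4.18, -4.24 and -4.64 at 0 cGy. It was 16.5-fold higher (4.05 ± 0.17). Mmp3 and Mmp13, proteases that cut matrix, rose (3.86 ± 0.39 and 2.61 ± 0.21), as did Timp1, an inhibitor of such proteases (2.65 ± 0.12). Zfp750, a zinc finger gene known from epidermis, was not well above background on any array at 0 cGy and was at least 2.18-fold higher at 300 cGy (adjusted p = 4.64e-09, measured means -5.32 at 300 cGy and -8.74 at 0 cGy).

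All 11 complement genes of the list rose (median 1.03), among them the receptor C5ar1 (1.48 ± 0.17) and Cfb, factor B of the alternative pathway (1.35 ± 0.13). Acute phase genes rose in 9 of 14 cases. Serpina3n, a serine protease inhibitor, was at -0.32, -0.35 and 0.35 at 300 cGy, against -3.26, -3.26 and -3.57 at 0 cGy. It rose (3.26 ± 0.34). Saa3, a serum amyloid A of macrophages, rose (3.41 ± 0.71) but lost its call without replicates 1 and 2 at 300 cGy (adjusted p = 0.0644).

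Neutrophil and granulocyte genes rose unevenly over the arrays. Of 20 neutrophil genes 14 rose and none fell (median 1.39), and of 7 granulocyte precursor genes 5 rose. The precursor list had mean levels of 1.73, 1.47 and 0.88 at 300 cGy, against 0.33, 0.26 and 0.26 at 0 cGy, so that replicate 3 at 300 cGy was closest to 0 cGy, as it was in the exocrine genes. Without replicates 1 and 2 at 300 cGy 8 neutrophil genes and no precursor gene passed. S100a8, a calcium-binding protein of neutrophils, was at 6.17, 6.08 and 5.52 at 300 cGy, against 5.0, 4.81 and 4.87 at 0 cGy. It rose (1.03 ± 0.25, adjusted p = 0.00262), but not without those replicates (0.62, adjusted p = 0.2). Stfa1, a stefin of neutrophils, rose (2.83 ± 0.28), as did the gelatinase gene Mmp9 (2.15 ± 0.15), the elastase gene Elane (0.87 ± 0.20) and Ctsg, cathepsin G (1.24 ± 0.46). Elane and Ctsg also lost their calls without those replicates, and Ctsg lost it too whenever 1 of the 6 arrays other than replicate 3 at 300 cGy was left out.

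Platelet genes had the same order of arrays. Of 23 megakaryocyte and platelet genes 20 rose (median 0.97), 9 without replicates 1 and 2 at 300 cGy and 10 with the exocrine level as a covariate. Pf4, the platelet chemokine, was at 6.11, 6.07 and 5.55 at 300 cGy, against 5.34, 5.21 and 5.34 at 0 cGy. It rose (0.61 ± 0.17), as did Itga2b, the integrin of platelets (1.67 ± 0.43), and Gp9, a platelet glycoprotein (0.85 ± 0.25). All 3 lost their calls in both of those alternatives. The part of the exocrine signal in these lists was not tested, and these counts cannot isolate it.

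The exocrine pancreas genes themselves rose furthest. Of 29 genes 28 rose and none fell (median 7.19), and all 29 lay above background on replicates 1 and 2 at 300 cGy, against 21 to 25 at 0 cGy. Cela2a, an elastase of acinar cells, was at 4.85, 4.01 and -0.53 at 300 cGy, against -8.81, -8.28 and -5.48 at 0 cGy. Replicate 3 at 300 cGy lay more than 4 log2 units below the other arrays at 300 cGy, and the difference was 10.3 ± 2.52 (adjusted p = 0.0028). Cela2a was well above background on 1 of 3 arrays at 0 cGy, so that this size rests in part on signals not well above background. The same holds for Prss1 and Pnliprp1, each well above background on 2 of 3 arrays at 0 cGy. Prss1, a trypsinogen, rose (8.99 ± 2.13), as did Pnlip, pancreatic lipase (8.95 ± 2.28), Pnliprp1, a related lipase (8.97 ± 2.23), Cela3a and Cela3b, further elastases (8.64 ± 2.2 and 8.68 ± 2.16), and Reg1, a regenerating protein of acinar cells (8.38 ± 2.05). Without replicates 1 and 2 at 300 cGy none of the 29 passed (median 4.14), and Cela2a had a change of 6.99 (adjusted p = 0.165).

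Genes of pancreatic islets were not seen to move with them. Of 7 islet genes none rose and 1 fell (median -0.18). Ins1, an insulin gene, was at -5.21, -5.01 and -5.32 at 300 cGy, against -5.2, -4.9 and -5.06 at 0 cGy. The groups overlapped and it did not pass (-0.13 ± 0.95, adjusted p = 0.936), in the fit whose error for this gene is shared with the other groups. The list was dim in B10.BR, with 0.000179% to 0.000226% of the summed signal at 300 cGy, so that a change could have been missed. Of 10 fat cell genes 4 rose, 2 without replicates 1 and 2 at 300 cGy and 2 with the exocrine covariate. Of 8 genes of mesothelium and epithelium 5 rose, with shares of 0.00612%, 0.00532% and 0.00277% of the summed signal at 300 cGy, against 0.00227%, 0.00188% and 0.00155% at 0 cGy. None of the 8 passed without replicates 1 and 2 at 300 cGy, and 2 did with the exocrine covariate. Krt8, a keratin of simple epithelia, was at -2.1, -2.63 and -4.1 at 300 cGy, against -5.03, -5.3 and -6.02 at 0 cGy, highest on the arrays with the most exocrine signal. The source of the exocrine, fat and epithelial signal was not tested.

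**Figure D3:**
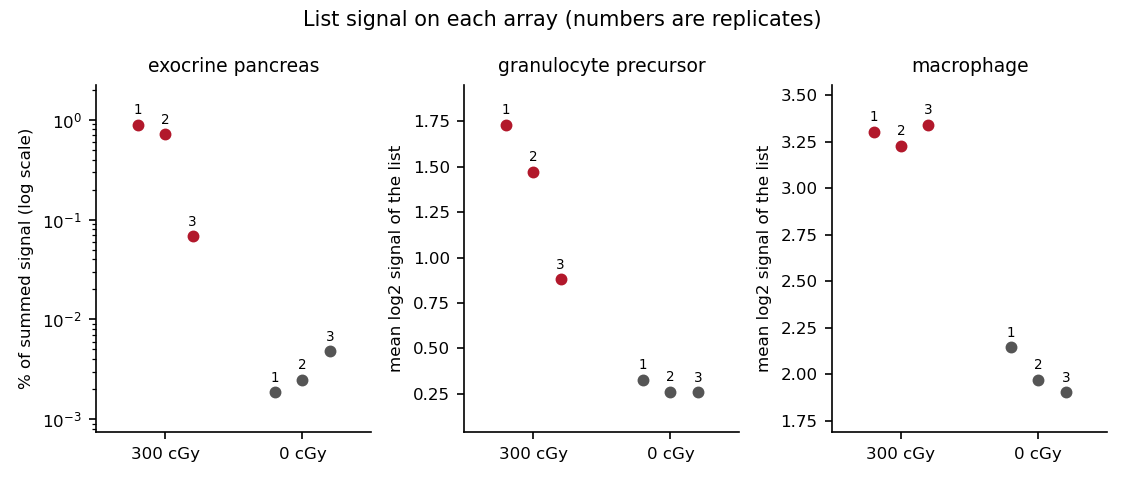
Exocrine pancreas share of the summed signal in percent (left, log axis) and mean log2 signal of the granulocyte precursor and macrophage lists (middle and right) on each array, 300 cGy left of 0 cGy, with replicate numbers above the points. Replicate 3 at 300 cGy is the lowest of its group in the left and middle panels (0.0678% and 0.88) but not in the macrophage panel.

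A further 3 lists moved little, or moved with the scaling. Of 76 cytosolic ribosomal protein genes 66 fell and none rose, with a median of -0.40, or -0.33 relative to all genes. With quantile normalization 14 fell (median -0.094) and with spike-in scaling none did (median -0.053). Rps15, a protein of the small subunit, was at 6.05, 5.88 and 5.72 at 300 cGy, against 6.57, 6.59 and 6.66 at 0 cGy and fell (-0.72 ± 0.12). Of 90 mitochondrial respiratory chain genes 3 rose and 14 fell (median -0.11, or -0.036 relative to all genes). With only the 6 arrays compared 6 fell, with the exocrine covariate 2, and 1 rose without replicates 1 and 2 at 300 cGy. The median was 0.027 with quantile normalization and 0.24 with spike-in scaling, of the opposite sign, with 9 and 6 genes rising and 1 falling in each. Of 20 antioxidant genes of the Nrf2 pathway 8 rose and 5 fell. Of these genes 4 rose and 5 fell without replicates 1 and 2 at 300 cGy, 2 fell with spike-in scaling and 3 with the exocrine covariate.

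Immediate early genes, which cells switch on within minutes of a stimulus, fell in 9 of 20 cases and none rose (median -0.55). The arrays at 0 cGy varied in these genes. The list's mean level ran from 0.551 to 1.53 at 0 cGy and from 0.530 to 0.590 at 300 cGy, so that the groups overlapped. With spike-in scaling 2 fell and 1 rose. Nr4a1, a nuclear receptor induced by antigen receptor signals, was at 3.97, 4.02 and 4.03 at 300 cGy, against 4.64, 5.19 and 5.88 at 0 cGy. It fell (-1.23 ± 0.21), as did Jund, a subunit of AP-1 (-0.75 ± 0.14), and Myc, a growth factor-induced transcription factor (-0.79 ± 0.14). Jund and Myc lost their calls with spike-in scaling. Fos, another subunit of AP-1, was at -2.61, -1.39 and -0.98 at 300 cGy, against -1.86, 0.35 and 1.52 at 0 cGy. Its arrays at 0 cGy spanned more than 3 log2 units and it did not pass (-1.67 ± 0.69, adjusted p = 0.0614). Fos passed without replicate 1 at 0 cGy (-2.60), without replicate 3 at 300 cGy (-2.01) and with normexp correction. With the replicate block it passed too (-1.67, adjusted p = 0.000965). Hsph1, a heat shock protein, also varied at 0 cGy, at 2.48, 2.26 and 2.4 at 300 cGy, against 2.94, 3.82 and 4.69 at 0 cGy, and fell (-1.44 ± 0.35), but not without replicates 1 and 2 at 300 cGy (adjusted p = 0.0503). Of 8 heat shock genes 5 fell and 1 rose, and 3 fell with spike-in scaling.

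BALB.K mice received the same dose, which allows the change in B10.BR to be set against that in another strain. The difference of the 2 changes, B10.BR minus BALB.K, passed for 3217 of 29526 genes (10.9%), positive for 1781 (6.03%) and negative for 1436 (4.86%). The BALB.K arrays lay on slides 2 and 3. Those at 0 cGy and replicate 1 at 300 cGy were on slide 2, and replicates 2 and 3 at 300 cGy on slide 3. Dose and slide thus went together in part in BALB.K, whereas the B10.BR arrays at both doses were on slide 1. The BALB.K replicates differed in exocrine signal too. They held 1.27%, 0.266% and 0.0403% of the summed signal at 300 cGy, against 0.164%, 0.0276% and 0.00795% at 0 cGy. With slide as a block 2385 genes passed, 1670 positive and 715 negative. The balance of directions depended on scaling, with 1093 positive and 4112 negative with median scaling and 2262 positive and 58 negative with spike-in scaling. No slide held both strains' arrays at 0 cGy or both at 300 cGy, so that strain and slide are separated only in part. Slides 2 and 3 were joined only by BALB.K at 300 cGy. The slide block therefore also takes up what set replicate 1 there apart from replicates 2 and 3, and cannot test slide by itself.

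The BALB.K pools also differed in a marker of male mice. Ddx3y was at 2.12, -8.59 and -8.87 at 300 cGy, against 2.44, -8.0 and -8.42 at 0 cGy in BALB.K, well above background on replicate 1 of each dose alone, whereas all 6 B10.BR arrays had it. Replicate numbers 2 and 3 of BALB.K thus differed from the B10.BR arrays in this marker at both doses. With the mean level of 4 Y-linked genes as a covariate 3774 genes passed, 2020 positive and 1754 negative. With replicate 1 alone kept from each BALB.K group, 1399 passed, 953 positive and 446 negative. Both alternatives were chosen after seeing the data, and in the second the lone BALB.K arrays are assumed to vary like the other groups.

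Cell division genes differed between the strains as a group. Of 37 mitosis genes 36 had a positive difference that passed, and of 36 DNA replication genes 35 did. With replicate 1 alone from BALB.K 33 mitosis and 26 replication genes passed, with slide as a block 36 and 33, and with spike-in scaling 35 and 33, each time with a positive difference. The mitosis list changed less in B10.BR, with a median of -1.35 against -2.88 in BALB.K. The mean level of the list was 0.052 in B10.BR and -0.44 in BALB.K at 300 cGy, and 1.37 in B10.BR and 2.43 in BALB.K at 0 cGy. The strains thus lay further apart at 0 cGy than at 300 cGy. Mki67 had changes of -2.15 ± 0.16 in B10.BR and -3.55 ± 0.16 in BALB.K, a difference of 1.41 ± 0.23 (adjusted p = 0.000653). Ccna2 differed by 1.77 ± 0.26, Cdk1 by 1.9 ± 0.30, Cdc6 by 1.84 ± 0.31, Orc1 by 1.18 ± 0.28 and Brca1 by 2.2 ± 0.32. Of these 6, Orc1 did not pass with replicate 1 alone from BALB.K or with only the 12 arrays of the 4 groups.

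Erythroid regulators had 6 positive differences of 11, and no negative one, but 3 positive ones with slide as a block or with replicate 1 alone from BALB.K. Epor had changes of -0.97 ± 0.15 in B10.BR and -2.36 ± 0.15 in BALB.K, a difference of 1.39 ± 0.22, and Gata1 differed by 1.25 ± 0.36. Rhd differed the other way, by -1.97 ± 0.44, with a change of -8.33 ± 0.31 in B10.BR and -6.36 ± 0.31 in BALB.K. Its mean at 300 cGy was -6.19 in B10.BR, where 1 of 3 arrays was above background, and -0.50 in BALB.K. Sptb rose in B10.BR and had a change of 0.014 ± 0.24 in BALB.K, a difference of 1.26 ± 0.34. Gata1, Rhd and Sptb did not pass with slide as a block, with only the 12 arrays of the 4 groups or with replicate 1 alone from BALB.K, and Epor passed in each. Gata1 did not pass with median scaling either.

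T cell genes gave differences that depended on the fit. Of 22 receptor and coreceptor genes 8 had a negative difference and 1 a positive one, with list medians of -0.87 in B10.BR and -0.37 in BALB.K. None passed with spike-in scaling, with only the 12 arrays of the 4 groups or with replicate 1 alone from BALB.K, and 2 negative ones passed with slide as a block. Lef1 had changes of -1.98 ± 0.15 in B10.BR and -0.71 ± 0.15 in BALB.K, a difference of -1.27 ± 0.21 (adjusted p = 0.000823), and Cd3d and Lat differed by -0.97 ± 0.24 and -0.93 ± 0.23. Their means at 300 cGy lay close together, at 0.55 in B10.BR and 0.54 in BALB.K for Lef1. At 0 cGy Lef1 had a mean of 2.54 in B10.BR and 1.25 in BALB.K. Lef1, Cd3d and Lat did not pass with spike-in scaling or with replicate 1 alone from BALB.K. Cd3d and Lat also did not pass with only the 12 arrays of the 4 groups, and Cd3d did not with slide as a block. Cd209a had changes of -1.39 ± 0.13 in B10.BR and -0.0027 ± 0.13 in BALB.K, a difference of -1.39 ± 0.18, which did not pass with spike-in scaling.

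Immediate early genes had 7 negative differences of 20 and no positive one, with medians of -0.55 in B10.BR and 0.25 in BALB.K, but none passed with spike-in scaling, with only the 12 arrays of the 4 groups or with replicate 1 alone from BALB.K, and 2 with slide as a block. These differences rest on B10.BR arrays at 0 cGy whose mean level of the list ran from 0.551 to 1.53. Nr4a1 had a change of -1.23 ± 0.21 in B10.BR and 0.21 ± 0.21 in BALB.K, a difference of -1.44 ± 0.29. The difference in Nr4a1 did not pass with spike-in scaling, with only the 12 arrays of the 4 groups or with replicate 1 alone from BALB.K. The interferon list had 3 positive and 4 negative differences of 37, with medians of 1.8 in both strains, and no negative one with spike-in scaling, with slide as a block or with replicate 1 alone from BALB.K. Irf7 had changes of 3.13 ± 0.24 in B10.BR and 1.68 ± 0.24 in BALB.K, a difference of 1.46 ± 0.33. The difference in Irf7 did not pass with slide as a block, with only the 12 arrays of the 4 groups or with replicate 1 alone from BALB.K. Ifi44l and Ifi202b were not well above background on any B10.BR array at either dose, and in BALB.K they rose by 3.0 ± 0.50 and 2.49 ± 0.35. Of 16 p53 targets of arrest and feedback 2 had a positive and 3 a negative difference, and of 15 death genes 2 had a positive and 2 a negative one, and no negative one of either list passed with spike-in scaling or with replicate 1 alone from BALB.K. Plk2 had changes of 0.66 ± 0.14 in B10.BR and 1.61 ± 0.14 in BALB.K, a difference of -0.95 ± 0.19, and Ddb2 differed by -1.05 ± 0.16. Both were without a call with spike-in scaling or with replicate 1 alone from BALB.K, and Plk2 also with only the 12 arrays of the 4 groups.

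None of the 27 macrophage genes and none of the 29 exocrine genes differed between the strains past the threshold, which does not show that they changed alike; with slide as a block 1 macrophage gene passed, with median scaling 1 and with the Y-linked covariate 2. The macrophage median was 1.27 in B10.BR and 1.22 in BALB.K, and the exocrine median 7.19 in B10.BR and 2.85 in BALB.K.

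**Figure D4:**
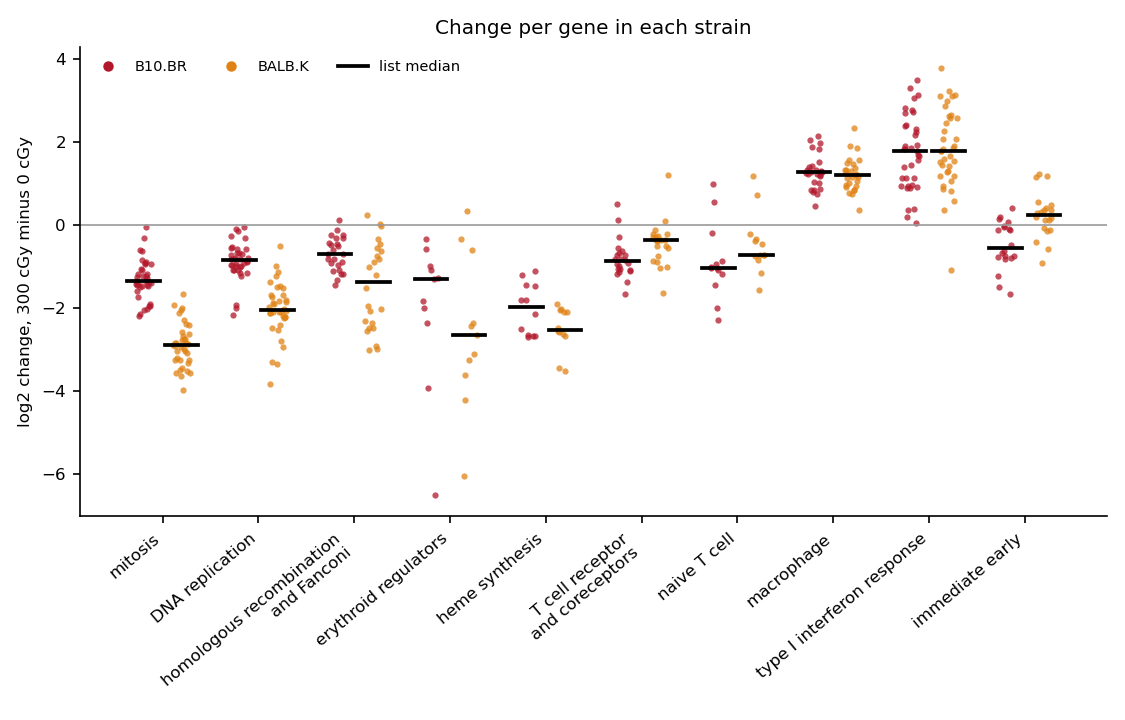
Log2 change of each gene (y axis, 300 cGy minus 0 cGy) in B10.BR (red, left) and BALB.K (orange, right) for 10 gene lists, with list medians as black bars. The mitosis medians are -1.35 in B10.BR and -2.88 in BALB.K, and the macrophage medians 1.27 and 1.22.

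B10.BR mice were also studied at 500 and 900 cGy against the same 0 cGy arrays, so that the changes share their controls and are set side by side here without a test. The arrays at 0 and 300 cGy lay on slide 1, but replicate 3 at 500 cGy and all arrays at 900 cGy lay on slide 2. At 900 cGy dose and slide went together, and the part of slide in these changes was not tested. At 300, 500 and 900 cGy Cdkn1a had changes of 3.82, 4.45 and 4.95. Klf1 had changes of -6.5, -7.95 and -8.56 and Ms4a1 of -0.85, -1.67 and -2.38. The medians over the B cell surface list were -0.91, -1.67 and -2.3, over the T cell receptor list -0.87, -1.45 and -2.14, and over the mitosis list -1.35, -1.54 and -2.15. These 3 lists were lower at each further dose. The macrophage list had medians of 1.27, 1.6 and 1.92 and the interferon list of 1.8, 2.03 and 1.31. The exocrine medians were 7.19, 2.6 and 8.56, lowest at the middle dose.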

How the data were processed

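Spleen RNA of 24 samples was hybridised with Cy3, 1 sample per array. The scanner files give spot intensity as read by Agilent Feature Extraction 10.5.1.1, per the file headers, with a processed signal from which background was subtracted. A matrix of log2 values that the authors deposited was centred by them in a way not given in the sources used here, and it served as an alternative only.

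Processed signals were converted to log2 and scaled by the 75th percentile of each array's non-control probes. Outlier spots were left out, which left 5 genes with a missing array value among the 6, and replicate spots were averaged. Probes well above background on all 3 arrays of at least 1 group were kept (42319 of 55681). Each gene was represented by its brightest kept probe, and 19828 of 29526 genes have a RefSeq symbol (GRCm38.p6); of 8066 genes with several kept probes 77 had called probes of opposite direction, 1 of them, the ribosomal protein gene Rps24, in a list. A linear model of group means was fitted to the 24 arrays together with limma 3.58.1 (R 4.3.3, data.table version 1.17.8), with empirical Bayes moderation and two-sided Benjamini-Hochberg adjusted p of 0.05 over all genes. A change against a group below background is a bound, counting that group at the lowest signal still well above background on each array. The 22 settings tried for the count of genes that passed are given in the closing section.

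On data simulated for this comparison with 29526 genes the steps recovered 63 of 100 genes changed by 1 log2 unit and 89 of 100 changed by 2, and 8 of 160 calls (5.0%) were false. No other gene was changed there, and noise was drawn independently for each gene and array. In the real comparison 41.8% of genes passed and arrays differed in exocrine signal, so that these rates need not hold for it. Same-numbered arrays did not deviate together (correlations of -0.20, -0.11 and 0.021), and the fit was unpaired. Levels are relative to the array, so that a change in total RNA per spleen is not seen.

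The comparison, the 62 gene lists and the rule for named genes were chosen with earlier results of these data known. The rule takes the 12 largest rises and falls with a symbol and no overlap, 12 further rises with close arrays at 300 cGy, list members, the 10 largest strain differences on each side and a fixed set of marker genes. Not every gene the rule takes is described, and a few are not reported here.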

Additional observations from a re-analysis of the deposited data

Results flagged for a closer look

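For each gene here the change at 300 cGy was tested against that in BALB.K, and the difference itself, in log2 and taken as B10.BR minus BALB.K, passed at an adjusted p of 0.05. The strains lay on different slides, and slide as a block of the fit cannot separate slide from pool. Slides 2 and 3 were joined only by the BALB.K pools at 300 cGy, replicate 1 on slide 2 and replicates 2 and 3 on slide 3. At each dose 2 of 3 BALB.K pools lacked the Y-linked signal that all B10.BR pools had, and these were replicates 2 and 3. The slide block and replicate 1 alone from BALB.K are thus no separate checks. Of the 29 genes given with a size, 10 passed with median scaling, with spike-in scaling, with slide as a block, with only the 12 arrays of the 4 groups, with the Y-linked covariate and with replicate 1 alone from BALB.K: Brca1, Ccna2, Cdc6, Cdk1, Mki67, Epor, Ccl3, Timp1, Mst1r and Pnp2.

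Cell division genes had positive differences: Ccna2 (1.77), Mki67 (1.41), Cdk1 (1.90), Orc1 (1.18), Cdc6 (1.84) and Brca1 (2.20) fell further in BALB.K. The red cell genes Gata1 (1.25) and Epor (1.39) did too, Sptb differed by 1.26, and Rhd by -1.97. The T cell genes Lef1 (-1.27), Cd3d (-0.97) and Lat (-0.93), the dendritic cell gene Cd209a (-1.39) and the immediate early gene Nr4a1 (-1.44) had negative differences.

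Of p53 targets and death genes, Psrc1 differed by 0.71, Plk2 by -0.95, Ddb2 by -1.05 and Mcl1 by -0.87. Of interferon genes, Irf7 differed by 1.46 and Rsad2 by 1.13. Of matrix and chemokine genes, Timp1 differed by 1.22, Matn1 by -0.94, Mmp13 by -1.03 and Ccl3 by 1.26. The granulocyte gene Elane differed by 1.02.

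Among the largest differences, Mst1r, a receptor tyrosine kinase, had changes of 1.0 ± 0.22 in B10.BR and -2.48 ± 0.22 in BALB.K, a difference of 3.49. Its change in B10.BR did not pass without replicates 1 and 2 at 300 cGy (0.59, adjusted p = 0.14). Gm7468, which the reference leaves without a described role here, differed by -3.91, with changes of -1.89 ± 0.57 in B10.BR and 2.02 ± 0.57 in BALB.K. Its change in B10.BR did not pass without those replicates, without replicate 1 at 300 cGy, with spike-in scaling or with the exocrine covariate. Pnp2, a purine nucleoside phosphorylase, differed by -3.02 and was at -0.25, -0.54 and -0.71 at 300 cGy, against 1.29, 1.04 and 1.08 at 0 cGy in B10.BR. Tdrd5, Hsd3b1, Slc6a19, Ifi44l, Ifi202b and Ccl7 had differences that passed, but a group of 1 strain or both was below background on all its arrays, so that no size is given.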

How the results depend on the processing

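The count of genes that passed at 300 cGy (12329) was 7926 with spike-in scaling (6775 higher and 1151 lower), 8655 without replicates 1 and 2 at 300 cGy, an alternative chosen after seeing the data, and 9095 with the exocrine level as a covariate. Leaving out 1 array at a time gave 10472 to 11418, the replicate block 12785, and the other settings 10962 to 12670. Of the genes in the lists 434 were higher and 391 lower in the main fit. With spike-in scaling 633 of them passed, 469 higher and 164 lower, and with the exocrine covariate 666 passed. The count of list genes that passed (825) was 759 to 791 without 1 array and 837 with the replicate block, where Fos passed (adjusted p = 0.000965). It was lower without replicates 1 and 2 at 300 cGy, where 1 array is set against 3. The count of strain differences (3217) was 5205 with median scaling (1093 positive and 4112 negative), 871 with only the 12 arrays of the 4 groups, 2320 with spike-in scaling (2262 positive and 58 negative), 3631 with the replicate block, 3774 with the Y-linked level as a covariate, 1399 with replicate 1 alone from each BALB.K group, and 1893 to 4752 without 1 array, the lowest without replicate 3 of B10.BR at 0 cGy. The causes were not tested, apart from the fewer arrays in some of these fits. The change of Trp53 (-0.31) was 0.031 with spike-in scaling and between -0.39 and -0.17 in the other alternatives, and was the only change of opposite sign among called genes named in the text. Spike-in scaling rests on 9 probes. Probes below background give only bounds, and 3 pools a group limit what could pass.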

Other observations

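Other gene groups were measured in the same arrays. Of 13 stem and progenitor genes 7 rose and 3 fell (median 0.60), and 3 rose without replicates 1 and 2 at 300 cGy, 4 with the exocrine level as a covariate, while 1 fell with spike-in scaling. Of 14 genes of Toll-like receptors and their partner Cd14, 11 rose and 1 fell (median 0.47). Of 18 death receptor and caspase genes 8 rose and 3 fell (median 0.28), but 1 fell without replicates 1 and 2 at 300 cGy or with the exocrine covariate and none with spike-in scaling. Of 8 smooth muscle genes 6 rose, 3 with the exocrine level as a covariate. Monocyte genes did not move together, with 2 of 9 higher and 2 lower, against none higher and 2 lower without replicates 1 and 2 at 300 cGy and 1 lower with spike-in scaling, and neither did those of germinal centre B cells, with 2 of 8 higher and 1 lower, against 1 higher and none lower without replicates 1 and 2 at 300 cGy. Of 11 mast cell and basophil genes 3 rose and 1 fell, and 5 rose with spike-in scaling.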
